A study of Arabidopsis thaliana with 6 samples.

Results

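Small heat shock proteins were followed by the compartment in which they work, as transcript levels in the Arabidopsis thaliana cdc5 mutant and in the wild type Col-0. The set comprised 10 of the 27947 genes of the deposited table, and 11 of its 45666 transcripts. It held 5 cytosolic proteins (HSP17.4A, HSP17.6C and HSP18.2 of class I, HSP17.6II and HSP17.7 of class II), plastid HSP21, HSP22.0 of the endoplasmic reticulum, and mitochondrial HSP23.5, HSP23.6 and HSP26.5. Genes were taken by identifier and chosen with their cdc5 and Col-0 levels in view, so the contrast between genotypes is given for these 10 genes as a description, without a test. A gene's level is the sum of its transcripts' FPKM (fragments scaled by transcript length and by the size of the library).

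The study comprised 3 cdc5 and 3 Col-0 libraries of polyadenylated RNA, and every library carries the label of rosette leaves. The CDC5 protein resembles MYB transcription factors and belongs to a complex that associates with the spliceosome, and the series title places it in the control of floral transition. The labels name neither the mutant allele, the age of the plants nor a heat treatment, and none of these was taken as given. Titles of both genotypes end in the numbers 1 to 3, taken here as replicates, although a title of the mutant could equally name an allele. Whether replicates are separate plants is not said, so the p-values cover the spread of these samples only, and that spread could be technical.

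Small heat shock proteins share an alpha-crystallin domain and bind unfolding proteins without using ATP, keeping them soluble until HSP70 and HSP101 or other ClpB machines refold them. Plants carry separate families of them in the cytosol, plastids, mitochondria, endoplasmic reticulum and peroxisomes. Their genes are bound by heat shock factors at heat shock elements, which are runs of GAA units in alternating orientation. Their transcripts are known to be scarce in unstressed leaves and abundant after heat. In Col-0 here they were not scarce: the 10 genes made up 0.413% of all FPKM, and HSP17.7 had rank 94 among all genes. A difference between genotypes in growth or harvest conditions cannot be told apart from genotype in these libraries.

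Estimated depth was 20.1 to 25.7 M fragments in cdc5 libraries and 19.3 to 23.9 M in Col-0 libraries. The CDC5 transcript was at 21.8, 21.3 and 21.0 FPKM in cdc5, against 38.2, 37.0 and 36.1 FPKM in Col-0 (log2 fold change -0.77, limma adjusted p = 2.3e-06), so it was lower but present in the mutant. Of 19778 genes with a mean of at least 1 FPKM, limma called 4433 lower in cdc5 and 6594 higher, and 5282 lower and 5155 higher once a trend with transcript length was removed. The 4 leaf mesophyll markers summed to 8419 to 8684 FPKM in cdc5 and 6980.4 to 8009.5 in Col-0. All 5 flower markers (AP1, AP3, PI, AG and SEP3) were also above 1 FPKM in every library, which the label of rosette leaves does not cover. Their sum ran from 508 to 518 FPKM in cdc5 and from 623 to 669.7 in Col-0, and that of 3 anther and pollen markers from 53.2 to 59.3 in cdc5 and from 82.0 to 89.2 in Col-0. AP3, PI, AG, AMS and BCP1 were lower in every cdc5 library than in every Col-0 library, AP1 and SEP3 overlapped between genotypes, and MS1 was higher in every cdc5 library. No seed or root marker reached 1 FPKM in every library. The part of these other tissues in the results below was not tested. In bulk RNA, fewer cells of a type and less RNA per cell cannot be told apart.

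Promoter sequences are shown first for 5 genes that span the range of the set: HSP17.4A and HSP17.6C, whose promoters hold the longest element searched for, HSP21 with the lowest cdc5 level relative to Col-0, HSP18.2 next to it in that respect, and HSP23.5 with the highest. Each sequence is the 250 bases before the annotated transcript start, read 5′ to 3′ on the gene's strand from TAIR10.1 (RefSeq). Capitals mark the GAA and TTC units of heat shock elements. For HSP17.6C, HSP18.2 and HSP23.5 the window reaches into a neighbouring gene, which lies 173, 240 and 155 bases away. The same holds for HSP17.7, not shown here, with a neighbour 110 bases away. The regions are chr3:16984868-16985117 on the minus strand for HSP17.4A, chr1:19980049-19980298 on the plus strand for HSP17.6C, chr5:24062073-24062322 on the plus strand for HSP18.2, chr4:13819972-13820221 on the minus strand for HSP21 and chr5:20890913-20891162 on the plus strand for HSP23.5.
HSP17.4A: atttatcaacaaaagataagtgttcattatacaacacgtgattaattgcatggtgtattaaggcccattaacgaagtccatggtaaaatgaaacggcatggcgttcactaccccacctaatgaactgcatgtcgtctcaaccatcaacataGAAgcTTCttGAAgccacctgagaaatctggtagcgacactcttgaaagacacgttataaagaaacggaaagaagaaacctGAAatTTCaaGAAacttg
HSP17.6C: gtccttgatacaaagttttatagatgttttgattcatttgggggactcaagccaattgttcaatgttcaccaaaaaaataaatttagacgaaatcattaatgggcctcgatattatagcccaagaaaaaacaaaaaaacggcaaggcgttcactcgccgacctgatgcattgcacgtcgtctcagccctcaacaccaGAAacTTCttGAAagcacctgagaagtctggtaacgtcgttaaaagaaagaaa
HSP18.2: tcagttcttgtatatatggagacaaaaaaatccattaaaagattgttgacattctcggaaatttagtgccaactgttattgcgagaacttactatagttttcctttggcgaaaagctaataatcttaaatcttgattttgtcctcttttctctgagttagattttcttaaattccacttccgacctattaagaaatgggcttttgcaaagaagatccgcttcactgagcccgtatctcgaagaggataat
HSP21: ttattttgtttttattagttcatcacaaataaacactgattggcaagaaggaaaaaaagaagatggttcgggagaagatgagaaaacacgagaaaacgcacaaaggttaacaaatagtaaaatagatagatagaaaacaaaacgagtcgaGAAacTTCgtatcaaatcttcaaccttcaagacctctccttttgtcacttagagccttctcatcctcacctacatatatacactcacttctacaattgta
HSP23.5: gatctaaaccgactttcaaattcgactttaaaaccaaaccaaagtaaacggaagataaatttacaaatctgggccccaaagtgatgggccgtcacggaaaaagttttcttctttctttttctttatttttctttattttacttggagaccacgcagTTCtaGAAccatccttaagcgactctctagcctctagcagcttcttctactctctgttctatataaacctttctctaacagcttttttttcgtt

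An element of 2 units was searched for as GAANNTTC or TTCNNGAA, and one of 3 units as GAANNTTCNNGAA or TTCNNGAANNTTC, on both strands. Each match of 3 units therefore contains 2 overlapping matches of 2 units. The 2-unit letters were found in 6 of the 10 promoters (HSP17.4A, HSP17.6C, HSP17.7, HSP21, HSP23.5 and HSP26.5) and in 16% of 24431 protein-coding promoters of the same length. The 3-unit letters were found in 2 of the 10, against 0.405% of all promoters. HSP17.4A held them at 99 to 87 and again at 18 to 6 bases before the start, and HSP17.6C at 53 to 41 bases. In lists described below, 2-unit letters were in 7 of 11 promoters of other heat-induced genes and 5 of 20 of heat shock factors. They were in 2 of 27 promoters of partner chaperones. The 3-unit letters were in 3, 3 and 0 promoters of these lists. HSP18.2, HSP17.6II, HSP22.0 and HSP23.6 had no match in this window, which says only that these letters are not in these 250 bases. Genes without a match ran from 11.5% (HSP18.2) to 22.7% (HSP17.6II) of their Col-0 level in cdc5. Genes with a match ran from 6.93% (HSP21) to 59.7% (HSP23.5, with its match at 94 to 87 bases). A link between the letters and the levels was not tested. The letters TATAAA were found on the gene strand in 3 of the 10 promoters (HSP17.4A, HSP22.0 and HSP23.5) and in 32.6% of all.

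**Figure D1:**
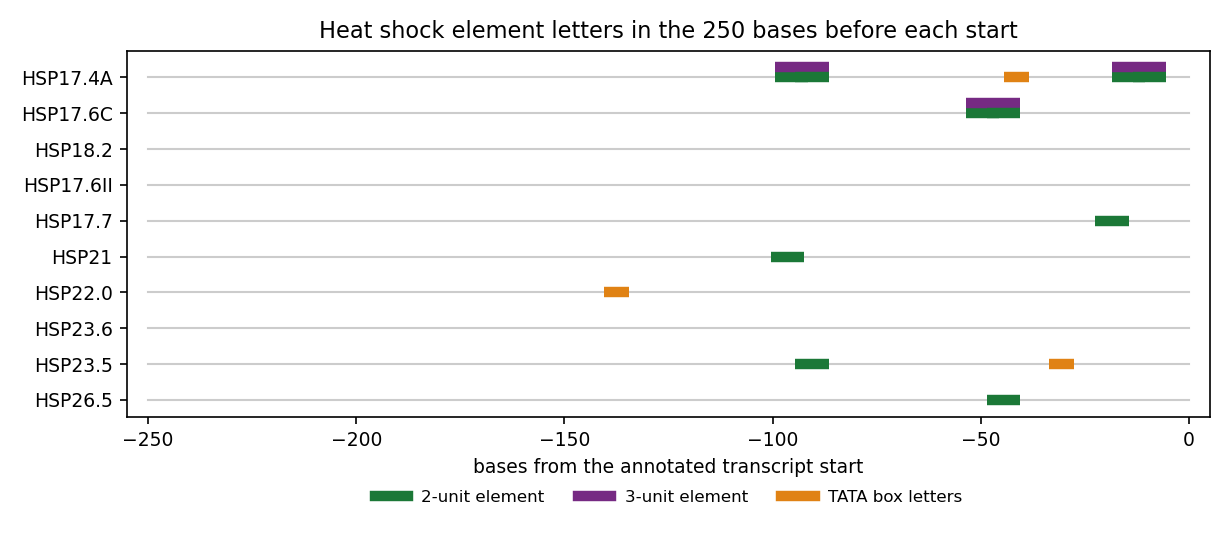
Positions of heat shock element letters and of TATAAA in the 250 bases before the annotated transcript start of each of the 10 genes, in bases from the start. Green bars are 2-unit elements, purple bars 3-unit elements and orange bars TATAAA; HSP17.4A and HSP17.6C are the 2 genes with 3-unit letters.

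Among the cytosolic class I proteins, HSP17.4A (AT3G46230, chr3:16984118-16984867, minus strand) stood at 98.9, 107 and 92.7 FPKM in cdc5 replicates 1, 2 and 3, against 516, 463 and 459 FPKM in Col-0. HSP17.6C (AT1G53540, chr1:19980299-19981199, plus strand) stood at 47.1, 51.3 and 49.0 FPKM in cdc5, against 387, 367 and 379 in Col-0. HSP18.2 (AT5G59720, named HSP18.1 in the table, chr5:24062323-24063300, plus strand) stood at 14.9, 14.3 and 14.2 FPKM in cdc5, against 124, 124 and 129 in Col-0. All cdc5 libraries lay below all Col-0 libraries for each of the 3 genes, as for 25.5% of all genes tested. Because the genes were chosen on this contrast, nothing is read from such gaps, here or for the genes below. As shares of the Col-0 mean, the cdc5 means were 20.8% for HSP17.4A, 13.0% for HSP17.6C and 11.5% for HSP18.2, and the class as a whole summed to 16.6%. HSP17.4A was the most abundant class I gene in both genotypes, at 99.5 ± 7.06 FPKM in cdc5 and 479 ± 31.6 in Col-0 (SD, n = 3 each).

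The class II proteins HSP17.6II and HSP17.7, which form assemblies separate from class I in the same compartment, are encoded by neighbouring genes on chromosome 5, 845 bases apart. HSP17.6II (AT5G12020, chr5:3882231-3883111, minus strand) stood at 68.6, 64.1 and 70.1 FPKM in cdc5, against 307, 291 and 294 in Col-0. HSP17.7 (AT5G12030, chr5:3883957-3884838, minus strand), also known as HSP17.6A, stood at 134, 147 and 144 FPKM in cdc5, against 573, 554 and 589.7 in Col-0. The genotypes did not overlap for either gene, and the cdc5 means were 22.7% and 24.8% of the Col-0 means. HSP17.7 was the most abundant of the 10 genes in both genotypes, with rank 669 among all genes in cdc5 and rank 94 in Col-0. Coding sequences of the pair were 86.1% identical, the highest value among the 45 pairs of members, with no identical run longer than 33 bases against a read length of 150 bases.

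HSP21 (AT4G27670, chr4:13818825-13819971, minus strand) is the plastid protein and is known for protecting plastid transcription and photosystem II under heat. Its transcript stood at 2.83, 3.14 and 2.30 FPKM in cdc5, against 40.2, 36.5 and 42.7 FPKM in Col-0. The cdc5 mean of 2.76 ± 0.423 FPKM was 6.93% of the Col-0 mean of 39.8 ± 3.12, the lowest share among the 10 genes. HSP21 was also the scarcest member in cdc5, and shared the last places with HSP26.5 in Col-0. An estimated 45.5 fragments lay behind its lowest library, so its cdc5 level is among the least precise in the set, with a coefficient of variation of 15.3% in cdc5 and 7.85% in Col-0.

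HSP22.0 (AT4G10250, chr4:6370338-6371372, plus strand) carries a signal peptide and works in the endoplasmic reticulum. It stood at 35.4, 37.5 and 37.0 FPKM in cdc5, against 235, 241 and 242 FPKM in Col-0. The means of 36.7 ± 1.07 and 239.5 ± 3.51 FPKM put cdc5 at 15.3% of Col-0, with no overlap between libraries and coefficients of variation of 2.93% in cdc5 and 1.47% in Col-0.

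The 3 mitochondrial genes differed most among themselves. HSP23.6 (AT4G25200, chr4:12916926-12918110, plus strand) stood at 41.2, 44.1 and 44.1 FPKM in cdc5, against 267, 288 and 273 in Col-0. HSP26.5 (AT1G52560, chr1:19574538-19575866, minus strand) stood at 5.86, 4.73 and 4.35 FPKM in cdc5, against 40.4, 39.8 and 40.9 in Col-0. HSP23.5 (AT5G51440, chr5:20891163-20892416, plus strand) stood at 79.6, 82.7 and 83.3 FPKM in cdc5, against 139, 136 and 136 in Col-0. HSP23.6 and HSP26.5 were thus at 15.6% and 12.3% of their Col-0 means, whereas HSP23.5 was at 59.7%, the highest share of the set. Its cdc5 and Col-0 libraries did not overlap either. HSP23.5 and HSP23.6, whose coding sequences were 71.1% identical with no identical run over 19 bases, stood in opposite order: HSP23.5 was the higher of the pair in all 3 cdc5 libraries, and HSP23.6 in all 3 Col-0 libraries. In the authors' deposited table, 10 of the 11 member transcripts were marked significant and lower, and HSP23.5 was the 1 not marked, with a fold of 0.597 against a limit of 2-fold.

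**Figure D2:**
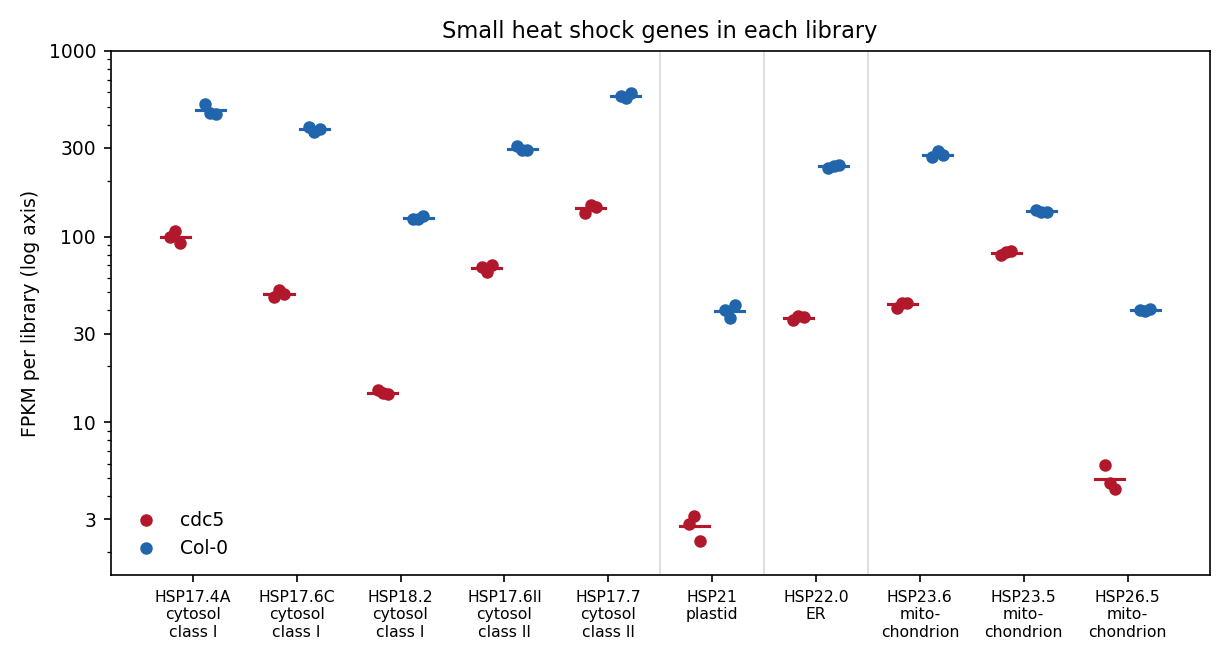
FPKM of each small heat shock gene in each library on a log axis, with cdc5 in red and Col-0 in blue; points are libraries and bars are means over 3. All cdc5 points lie below all Col-0 points for each gene, as for 25.5% of all genes tested. HSP23.5 shows the smallest gap, 81.9 against 137 FPKM.

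HSP26.5 was the only member with more than 1 transcript in the table. Its shorter form lacks 21 bases of the longer one, at chr1:19575181-19575201 on the minus strand. These bases follow the intron directly and are shown in capitals after the last 10 intron bases in lower case, because they are what tells the forms apart.
HSP26.5: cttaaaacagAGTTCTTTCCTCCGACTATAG
The shorter form made up 7.91%, 0% and 12.1% of the gene's FPKM in the cdc5 libraries, against 8.49%, 12.3% and 4.52% in Col-0. The means of 6.68 ± 6.17% and 8.44 ± 3.90% (SD, n = 3 each) lay within each other's spread, and the low level of the gene in cdc5 limits what could be seen.

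On the log2(FPKM + 1) scale, which understates the change of low genes, the differences of the 10 genes between cdc5 and Col-0 ran from -3.44 for HSP21 to -0.74 for HSP23.5. Between these lay -3.03 for HSP18.2, -2.92 for HSP17.6C, -2.80 for HSP26.5, -2.68 for HSP22.0, -2.65 for HSP23.6, -2.26 for HSP17.4A, -2.12 for HSP17.6II and -2.0 for HSP17.7. Their median was -2.66, beside 0.06 over all genes tested. All 10 passed the filter on low values, and in all 10 every cdc5 library lay below every Col-0 library. That held for 25.5% of all genes, and since the genes were chosen on this contrast nothing is read from the count. The gap was widest for HSP21, whose lowest Col-0 library was 11.6 times its highest cdc5 library, and narrowest for HSP23.5, at 1.63 times.

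The order of the genes differed between genotypes in the place of HSP23.5, 3 in cdc5 and 7 in Col-0, and in that of HSP17.6II and HSP17.6C. HSP17.6II was above HSP17.6C in all cdc5 libraries and below it in all Col-0 libraries. In cdc5 the order by mean was HSP17.7, HSP17.4A, HSP23.5, HSP17.6II, HSP17.6C, HSP23.6, HSP22.0, HSP18.2, HSP26.5 and HSP21. No neighbours in that order had overlapping libraries in cdc5. In Col-0 the order was HSP17.7, HSP17.4A, HSP17.6C, HSP17.6II, HSP23.6, HSP22.0, HSP23.5, HSP18.2, HSP26.5 and HSP21, where only HSP26.5 and HSP21, at 40.4 ± 0.521 and 39.8 ± 3.12 FPKM, overlapped and cannot be ranked against each other.

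Summed over the 10 genes, the libraries held 529, 556 and 542 FPKM in cdc5, against 2629, 2539.8 and 2586 FPKM in Col-0. This was 0.0903% of all FPKM in cdc5 and 0.413% in Col-0, and the cdc5 sum was 21.0% of the Col-0 sum. Cytosolic and organellar sums were at 20.1% and 23.1% of Col-0. The make-up of the sum also differed. HSP23.5 contributed 15.1 ± 0.262% of it in cdc5 and 5.31 ± 0.0482% in Col-0. Class I genes contributed 30.1 ± 1.15% in cdc5 and 38.0 ± 0.908% in Col-0, whereas class II genes contributed 38.7 ± 0.833% and 33.6 ± 0.481%. HSP17.7 alone contributed 26.2 ± 0.689% in cdc5 and 22.1 ± 0.584% in Col-0 (SD, n = 3 each).

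**Figure D3:**
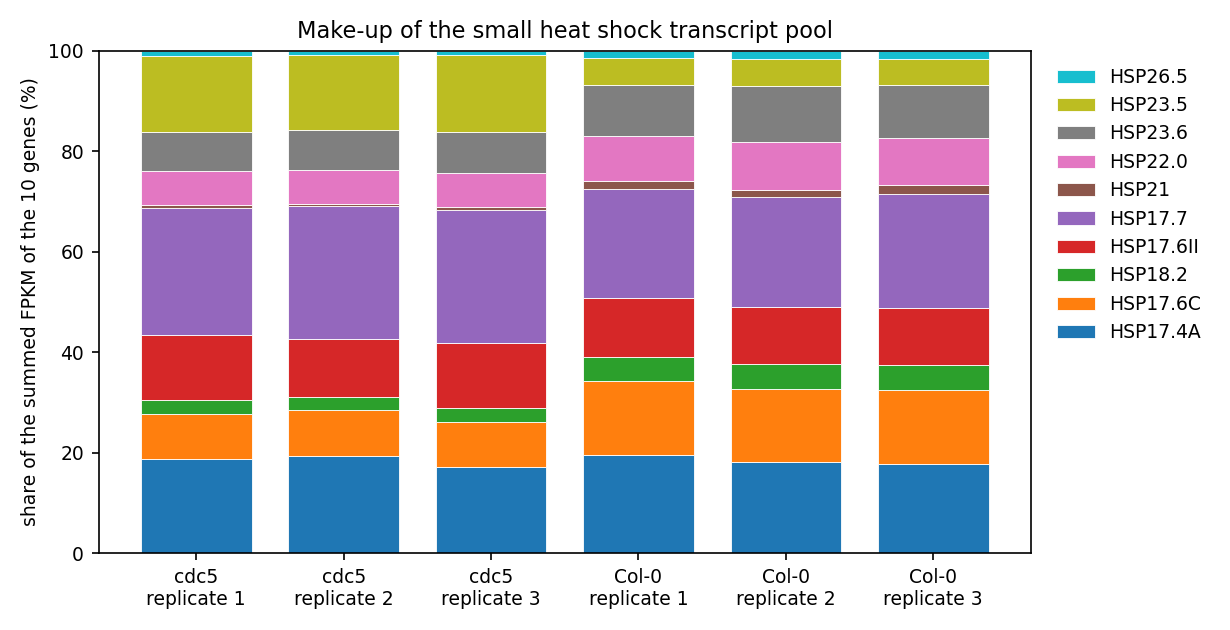
Share of each gene in the summed FPKM of the 10 small heat shock genes, in percent, for 3 cdc5 libraries on the left and 3 Col-0 libraries on the right. HSP23.5 takes 15.1% on average in cdc5 and 5.31% in Col-0, and HSP17.7 is the largest segment in every library.

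Features of the gene models are given as a description. The genes were chosen as small heat shock proteins, so their transcript length and annotation are not independent of that choice. The 5 cytosolic genes and HSP22.0 have a single exon, whereas HSP21, HSP23.6, HSP23.5 and HSP26.5 have 1 intron each, of 164, 137, 139 and 285 bases. Levels in cdc5 relative to Col-0 did not separate by intron, since HSP21 and HSP23.5 stood at the ends of the range and both have one. Transcripts were 750 to 1115 bases long, and all 10 fell in the 3 shortest of 10 equal groups of genes by transcript length. The median log2 fold changes of those groups were -0.09, -0.06 and -0.03. Of the 10 genes, 8 carried the annotation term for response to heat and 8 that for response to hydrogen peroxide. Over all 19778 genes tested, 151 and 67 carried these terms.

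The 9 other small heat shock genes of the genome were tested in the same limma fit, in which 22.4% of all genes were lower and 33.3% higher in cdc5. Of these 9, 6 fell, none rose and 3 did not pass, with a median log2 fold change of -1.57. The list was drawn up with these data known, so the count is a description. The peroxisomal HSP15.7 fell most (log2 fold change -2.41, limma adjusted p = 6.5e-09). It stood at 23.3, 24.2 and 21.4 FPKM in cdc5, against 131, 122 and 125 in Col-0, and the genotypes did not overlap.

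Class I genes outside the set followed. HSP17.8, the most abundant of all 19 small heat shock genes, fell to 314, 331 and 323 FPKM in cdc5, against 1089, 1076 and 1117 in Col-0. HSP17.6B-CI averaged 84.0 ± 3.20 FPKM in cdc5 and 371 ± 11.8 in Col-0, and HSP17.6A-CI 195 ± 4.38 and 698 ± 16.9. Their log2 fold changes were -1.76, -2.13 and -1.84, each with a limma adjusted p of at most 3.9e-09. HSP17.6A-CI and HSP17.8 were 88.1% identical with no identical run over 43 bases. HSP18.5 (log2 fold change -1.57, limma adjusted p = 1.4e-08) and HSP17.4-CIII (log2 fold change -1.31, limma adjusted p = 8.7e-08) fell as well. HSP17.4-CIII has 2 transcripts, and its value was -2.38 when the higher transcript alone stood for the gene.

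HSP15.4, HSP21.7 and HSP14.7 did not pass the test, and their libraries overlapped. HSP15.4 averaged 7.36 ± 1.48 FPKM in cdc5 and 8.46 ± 0.633 in Col-0, HSP21.7 averaged 5.66 ± 0.729 and 6.51 ± 0.393, and HSP14.7 averaged 32.0 ± 1.82 and 30.7 ± 2.93 (SD, n = 3 each). Their limma adjusted p values were 0.23, 0.13 and 0.47. HSP15.4 passed without cdc5 replicate 3 (log2 fold change -0.32, limma adjusted p = 0.036) and HSP21.7 without cdc5 replicate 2 (-0.26, limma adjusted p = 0.037) or under cyclic loess scaling (-0.28, limma adjusted p = 0.033). The 2-unit heat shock element letters were found in 1 of the 9 promoters of these other genes, that of HSP15.7.

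Other genes known to be induced by heat fell with the small heat shock genes. Of 12 listed, 11 were lower in cdc5 and none was higher, with a median log2 fold change of -1.39. Over all genes 22.4% were lower and 33.3% higher. As this list too was drawn up with these data known, its count is a description. HSA32, which prolongs acquired heat tolerance, fell to 11.2, 10.8 and 11.6 FPKM in cdc5, against 71.8, 68.3 and 70.7 in Col-0 (log2 fold change -2.54, limma adjusted p = 2.9e-09). The J-domain protein gene AT1G71000 fell by 2.79 on the log2 scale (limma adjusted p = 6e-08), with 4.81 ± 0.616 FPKM in cdc5 and 39.0 ± 2.58 in Col-0, and its value was -3.67 with the highest transcript alone as gene level. The peptidyl-prolyl isomerases ROF1 and ROF2, which bind HSP90, averaged 113 ± 3.64 and 68.1 ± 1.44 FPKM in cdc5, against 276 ± 8.71 and 219 ± 3.31 in Col-0 (limma adjusted p at most 5e-08). The HSP70 and HSP90 helpers FES1A, BAG6 and HOP3 had log2 fold changes of -1.49, -1.29 and -1.62, and the transcriptional coactivator MBF1C and the galactinol synthase GOLS1 of -1.16 and -1.22 (each limma adjusted p at most 5.6e-07). The 1 gene that did not pass was HSBP, a negative regulator of heat shock factors named here after its value was seen, at 80.1 ± 3.25 FPKM in cdc5 and 83.1 ± 1.94 in Col-0 (limma adjusted p = 0.28).

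Heat shock factors, the transcription factors that bind the elements above, were called in both directions. Of 21 listed, 17 passed the filter on low values, of which 7 were lower in cdc5, 6 higher and 4 without a call, with a median of -0.04. Over all genes 22.4% were lower and 33.3% higher, so the number of higher calls is near that background. The factors that fell most are themselves heat-induced. HSFA7B stood at 12.1, 11.6 and 11.2 FPKM in cdc5, against 47.4, 51.2 and 48.8 in Col-0 (log2 fold change -1.99, limma adjusted p = 1.8e-08). The repressor HSFB1 averaged 47.3 ± 1.03 FPKM in cdc5 and 134 ± 1.18 in Col-0 (log2 fold change -1.48, limma adjusted p = 9.2e-09). HSFA2, which sustains the expression of small heat shock genes after heat, stood at 205, 144 and 141 FPKM in cdc5, against 353, 339 and 355 in Col-0 (log2 fold change -1.11, limma adjusted p = 0.0043). HSFA7A and the repressor HSFB2B had log2 fold changes of -0.91 and -0.88 (limma adjusted p at most 9.1e-07).

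The HSFA1 genes encode the constitutive factors that start the heat response, and were singled out after their values were seen. HSFA1A rose, with 4.77 ± 0.307 FPKM in cdc5 and 3.47 ± 0.187 in Col-0 (log2 fold change 0.37, limma adjusted p = 0.0041). HSFA1D averaged 7.60 ± 0.122 FPKM in cdc5 and 6.29 ± 0.250 in Col-0 (0.24, limma adjusted p = 0.011), and HSFA1E 3.85 ± 0.263 and 3.12 ± 0.268 (0.24, limma adjusted p = 0.046). Neither call held once the length trend was removed or under cyclic loess scaling, and HSFA1E also lost its call with any library but Col-0 replicate 1 left out, with limma adjusted p from 0.066 to 0.14. HSFA1B averaged 4.70 ± 0.348 FPKM in cdc5 and 4.86 ± 0.777 in Col-0 and did not pass (limma adjusted p = 0.8).

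Chaperones of the HSP70, HSP90, HSP60 and ClpB types, called partner genes here, were listed by the same compartments. Whether each of them takes over substrates from small heat shock proteins was not examined. Of 27, 26 could be tested, of which 17 fell, 5 rose and 4 had no call, with a median of -0.28. Over all genes 22.4% were lower and 33.3% higher, and the list was drawn up with these data known. The cytosol had 7 of 10 lower and 1 higher, with a median of -0.82. HSP70-5 fell to 26.3, 26.8 and 26.7 FPKM in cdc5, against 203, 187 and 191 in Col-0 (log2 fold change -2.82, limma adjusted p = 9.5e-10). The disaggregase HSP101 averaged 250.3 ± 6.14 FPKM in cdc5 and 785 ± 51.1 in Col-0, and HSP70-4 averaged 293 ± 8.07 and 677 ± 17.3 (SD, n = 3 each). HSP90.1 stood at 141, 145 and 141 FPKM in cdc5, against 461, 429.7 and 458 in Col-0. The limma adjusted p of each of these 3 was at most 4.2e-08.

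HSC70-3 was the cytosolic exception in spread. It stood at 44.9, 68.3 and 49.9 FPKM in cdc5, against 81.3, 616 and 495 in Col-0, where replicate 1 lay far below the other libraries of its genotype. It had no call (log2 fold change -2.43, limma adjusted p = 0.09), and without Col-0 replicate 1 the value was -3.34 (limma adjusted p = 0.0022). None of the 10 small heat shock genes showed a comparable gap in that library.

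In the plastid, where HSP21 works, 5 of 6 partner genes fell and 1 rose, with a median of -0.18. The shares over all genes were 22.4% lower and 33.3% higher. The ClpB-type disaggregase CLPB3 averaged 84.9 ± 0.498 FPKM in cdc5 and 215 ± 9.95 in Col-0 (log2 fold change -1.33, limma adjusted p = 5e-08), while the other 5 lay between -0.22 and 0.15. In the endoplasmic reticulum, where HSP22.0 works, 2 of 3 tested genes fell, with values between -0.45 and 0.01. The fourth listed gene, BIP3, missed the filter on low values and stood at 1.51, 1.03 and 1.06 FPKM in cdc5, against 0.381, 0.422 and 0.269 in Col-0. It was higher in every cdc5 library, and passed as higher in the fit without the filter. The calls of HSP90.5 in the plastid and BIP1 in the endoplasmic reticulum, singled out after their values were seen, lay near the threshold (limma adjusted p = 0.032 and 0.026).

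In mitochondria, 3 of 7 partner genes fell and 3 rose, with a median of -0.01. With 22.4% lower and 33.3% higher over all genes, nothing is read from these counts. The disaggregase CLPB4 averaged 28.4 ± 1.08 FPKM in cdc5 and 88.4 ± 3.44 in Col-0 (log2 fold change -1.60, limma adjusted p = 4e-08). The paralogous mitochondrial HSP70 genes moved in opposite directions. The transcript of mtHSC70-1 rose to 140.1, 134 and 133 FPKM in cdc5, against 64.7, 63.7 and 63.9 in Col-0 (log2 fold change 1.07, limma adjusted p = 9e-08). That of mtHSC70-2 fell to 135, 136 and 136 FPKM in cdc5, against 323, 310.5 and 319 in Col-0 (log2 fold change -1.22, limma adjusted p = 1.5e-08). Both directions held under every alternative tried. The coding sequences of the pair were 74.1% identical, with no identical run over 24 bases. Of the 26 partner genes tested, mtHSC70-1 had the highest fold change.

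**Figure D4:**
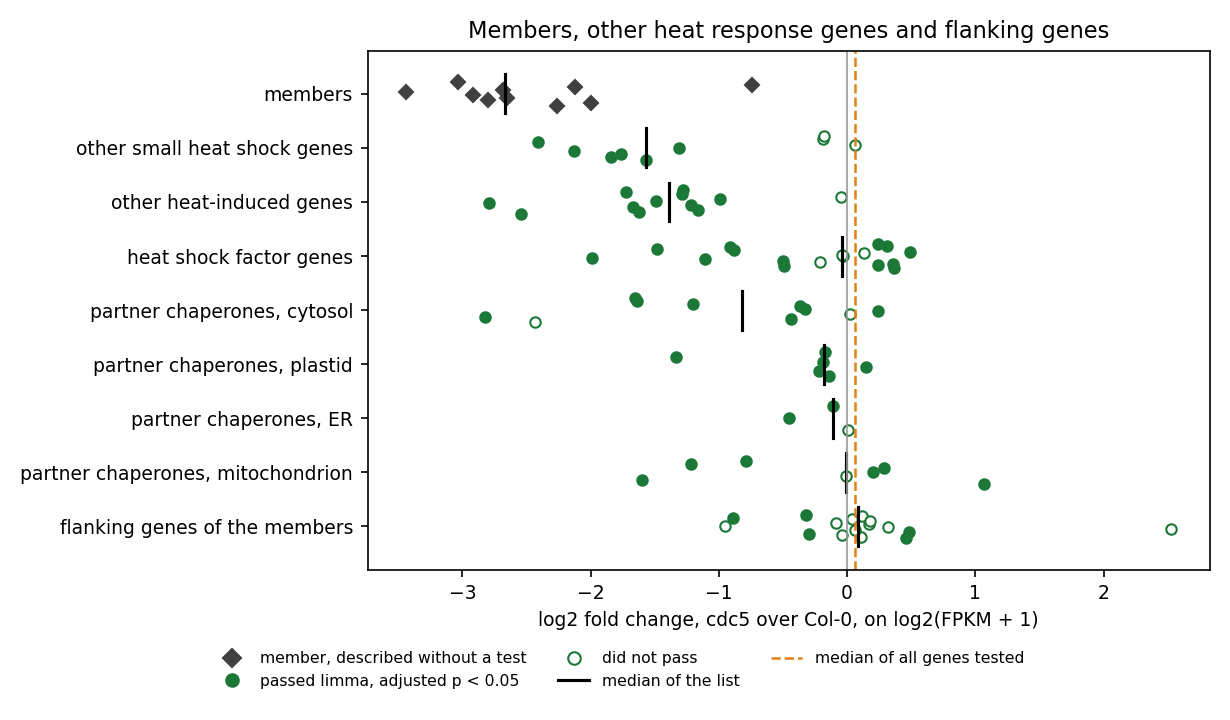
Log2 fold change of cdc5 over Col-0 on the log2(FPKM + 1) scale for the 10 small heat shock genes (members), other small heat shock genes, other heat-induced genes, heat shock factors, partner chaperones by compartment and flanking genes. Filled circles passed limma, open circles did not, vertical bars are list medians (-2.66 for the 10 genes) and the dashed line is the median of all genes tested, 0.06.

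Genes beside the small heat shock genes on the chromosome were called in both directions. Of 19 flanking genes, 16 could be tested, of which 3 fell (NLP3, BBX23 and AT4G10260), 2 rose (VIP2 and AT1G52565) and 11 had no call, with a median of 0.09, beside 22.4% lower and 33.3% higher over all genes. These 5 were named after their calls were seen. AT4G10260 ends 4 bases from HSP22.0 on the opposite strand and stood at 12.2 ± 0.407 FPKM in cdc5 and 15.5 ± 0.715 in Col-0 (limma adjusted p = 0.0012). VIP2 lies 240 bases before HSP18.2 on the same strand and stood at 20.8 ± 1.22 FPKM in cdc5 and 14.6 ± 0.659 in Col-0 (log2 fold change 0.48, limma adjusted p = 0.00018). On the other side of HSP18.2, 574 bases away on the opposite strand, ATEXO70H7 stood at 46.9, 43.4 and 46.5 FPKM in cdc5, against 11.6, 0.495 and 26.9 in Col-0. It was higher in all cdc5 libraries but had no call (log2 fold change 2.53, limma adjusted p = 0.16), and its Col-0 libraries differed widely. Leaving out Col-0 replicate 2 put its value at 1.31, and leaving out Col-0 replicate 3 put it at 3.43.

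HSP17.4A overlaps annotated genes on the opposite strand, and the sources used here do not say whether strand was used in assigning fragments. AT3G46220 overlaps its end by 60 bases and stood at 14.5, 13.7 and 13.9 FPKM in cdc5, against 12.9, 14.2 and 11.6 in Col-0 (limma adjusted p = 0.21). The long noncoding RNA AT3G07365 lies inside HSP17.4A, over 453 bases. It was at 6.73 FPKM in Col-0 replicate 3 and at most 0.0721 FPKM in each of the other 5 libraries, small beside the 459 FPKM of HSP17.4A in that library.

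The genes whose profile came closest to the small heat shock genes were found by distance between centred log2(FPKM + 1) values over the 6 libraries and the mean profile of the 10 genes. The 5 nearest were HSP15.7 (distance 0.115), LFG4 (0.141), HSA32 (0.148), AT1G04660 (0.282) and EGY3 (0.340). With 2 genotypes, this distance mostly measures how close a gene's log2 difference is to that of the mean profile. LFG4 stood at 6.50, 7.01 and 6.95 FPKM in cdc5, against 41.9, 38.3 and 39.7 in Col-0, and EGY3 at 10.2, 10.4 and 9.71 FPKM in cdc5, against 49.1, 49.2 and 50.3 in Col-0. HSP23.5 lay farthest from the mean of its own set, at a distance of 2.11, and 728 genes outside the set were at least as near as it. HSP23.6 and HSP22.0 lay nearest, at 0.269 and 0.273.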

How the data were processed

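Transcript levels came from 6 polyadenylated RNA libraries, 3 of cdc5 and 3 of Col-0, grouped by genotype label. FPKM values per transcript and library were deposited by the authors in one file, beside their own fold, log2 fold, p-value and q-value columns. Tools listed in the submitters' processing notes, with roles not stated, are HISAT2 2.0.4, StringTie 1.3.4d, cutadapt 1.9, edgeR and DESeq2, and the genome build listed there is a mouse build that cannot apply here. Of 27696 nuclear genes, 97.8% have the same span in TAIR10.1, including all 10 members, and coordinates are as the table gives them. How fragments that fit several genes were shared, and whether strand was used, is not stated in the labels.

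Steps between low FPKM values gave an estimate of depth, searched between 15 and 30 M fragments: 63.2% to 66.8% of low values per library lay within 0.1 of a whole multiple, against 20% for an unfitted step. Counts could not be recovered, so no count model was fitted. A level of 3 fragments over 1 kilobase is 0.117 to 0.155 FPKM, which covers counting error only. The median squared difference between libraries of a genotype was 2.01 to 2.55 times that of counting noise, so none was a copy of another.

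Gene levels (summed FPKM, mean of at least 1 FPKM) were compared with limma 3.58.1 (R 4.3.3, and version 1.17.8 of data.table) on log2(FPKM + 1), with trend and robust moderation and Benjamini-Hochberg adjusted p under 0.05 over all genes, and were tested on simulated data first. With 3 libraries against 3, an exact permutation test cannot give a p below 0.1. Values after ± are SD over n = 3 libraries. Promoters and similarity were computed with Biopython 1.88, and tables and plots with matplotlib 3.10.9, pandas 2.3.3 and numpy 2.4.6 under Python 3.11.15. Deviations of same-numbered libraries of the 2 genotypes correlated at 0.00 to 0.06, and the numbers were not used as pairs.

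The members and all gene lists were chosen with earlier results of these data known. Genes named are the 10 members, the 9 other small heat shock genes, and, of the factor, heat-induced and partner lists, the 4 with the smallest adjusted p and those with at least 20 FPKM in either genotype and a 2-fold change. Flanking genes with a 2-fold change or overlapping a member, the 5 nearest profiles and CDC5 were also named. Alternatives were the pseudocount, the filter on low values, cyclic loess scaling, removal of a length trend, a replicate block, the highest transcript as gene level, and each library left out in turn.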

Additional observations from a re-analysis of the deposited data

How the results depend on the processing

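All 10 small heat shock genes stayed lower in cdc5 under each alternative but the replicate block, whose values for them were not examined. Their median log2 fold change was -2.59 under cyclic loess scaling and -2.68 to -2.64 with single libraries left out, against -2.66. The largest shift was that of HSP21, to -3.81 with a pseudocount of 0.1 FPKM. Removing the length trend gave 1 other small heat shock gene higher (HSP14.7, 0.19) against 0, and 2 partner genes higher against 5. Heat shock factors called higher numbered 3 with the filter at 5 FPKM, where 11 were tested, and 3 under cyclic loess, against 6. Flanking genes called lower numbered 5 under cyclic loess against 3, and those called higher 2 to 4 with single libraries left out, with 4 without Col-0 replicate 2.

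Among named genes, directions that turned were near 0: HSBP was at 0.01 under cyclic loess and 0.04 without the length trend, AT3G46220 at -0.04 without that trend, and HSFA1B ran from -0.10 to 0.07 with single libraries left out. The causes were not tested.

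Same-numbered libraries correlated at 0.04, 0.06 and 0.00 in their deviations, and other pairs at -0.07 to 0.03. Such low values do not settle whether same-numbered libraries shared a batch. With the replicate block, 4289 genes were lower and 6345 higher, and of the 80 listed and flanking genes tested, 1 lost its call (HSFA1E, limma adjusted p = 0.086) and the other 79 kept their side of the threshold. The depth of HSP21 and HSP26.5 in cdc5, at least 45.5 and 91.2 estimated fragments per library, limits the precision of their levels.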
